A study of Mus musculus with 54 samples.

Results

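The mature microRNAs (miRNAs) of the family of miR-148 and miR-152 and of the miR-101 family were followed by name through the deposited small RNA tables of a mouse diet study. The 6 members, of 1966 mature miRNA names in each count table, are listed there as mmu-miR-148a-3p, mmu-miR-148a-5p, mmu-miR-148b-3p, mmu-miR-152-3p, mmu-miR-101a-3p and mmu-miR-101b-3p; the prefix is left off below. All 6 were counted in the epididymal depot of white fat (eWAT, which lies along the epididymis) and in liver. None of them is among the 79 miRNAs of the sperm table, so sperm gives no value here. All mice were wild-type C57BL/6 males of the F0 generation kept on chow up to the age of 6 weeks, and tissue was taken at 24 weeks. Between these ages the HFLF mice were fed high-fat food for 9 weeks followed by low-fat food for another 9, the HF mice high-fat food throughout (18 weeks), and the LF mice low-fat food throughout (18 weeks). Every diet is represented by 6 libraries in each tissue, which makes 36. The column names of the tables code the diets as R, H and C. Here R was taken as HFLF, H as HF and C as LF; the labels do not spell out C and R, so the diet names rest on that reading.

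A miRNA guides an Argonaute protein to messenger RNAs that pair with its seed, bases 2 to 8 from its 5′ end, and lowers their translation and stability. In liver, miR-148a is known to repress the low-density lipoprotein receptor and the cholesterol exporter ABCA1, and in fat precursor cells it is known to favour adipocyte differentiation. The family of miR-148 and miR-152 as a whole is known for repressing DNA methyltransferases, and miR-101 for repressing EZH2, the histone methyltransferase of Polycomb complexes.

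The mature sequences are shown to make visible which members can share targets and which can share reads. They are RefSeq sequences, written 5′ to 3′ with the seed in capitals, and all 6 members were found in that table (GRCm38.p6).
miR-148a-3p: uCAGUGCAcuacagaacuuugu
miR-148b-3p: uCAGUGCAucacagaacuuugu
miR-152-3p: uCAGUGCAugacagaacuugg
miR-148a-5p: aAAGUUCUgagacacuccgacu
miR-101a-3p: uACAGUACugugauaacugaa
miR-101b-3p: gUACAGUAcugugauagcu
The miR-148a-3p, miR-148b-3p and miR-152-3p strands carry the same seed, CAGUGCA, and no other name in the RefSeq table does. Counted from 1 at the 5′ end, miR-148b-3p differs from miR-148a-3p by C9U and U10C, and miR-152-3p differs from it by C9U, U10G and U20G. The miR-101a-3p and miR-101b-3p strands are listed with starts 1 base apart, which gives them the seeds ACAGUAC and UACAGUA. Over the 18 bases that they share they differ by A16G, counted on miR-101a-3p. How the authors counted reads that match more than 1 name is not given in the sources used here, so the split of counts within a family is uncertain to that extent.

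The hairpins lie on different chromosomes, and their host genes are those of GENCODE vM21. Mir148a is at chr6:51269812-51269910 on the minus strand and overlaps no other gene. Mir148b is at chr15:103285125-103285221 in an intron of Copz1, and Mir152 is at chr11:96850393-96850465 in an intron of Copz2, both on the plus strand of genes for coatomer subunits. Mir101a is at chr4:101346945-101347027 on the minus strand, in an exon of the long non-coding RNA gene E130102H24Rik. Mir101b is at chr19:29135279-29135375 in an intron of Rcl1, on the plus strand. The hairpin of miR-148a is printed because it gives rise to 2 of the members, the 5p arm and then the 3p arm in capitals.
Mir148a: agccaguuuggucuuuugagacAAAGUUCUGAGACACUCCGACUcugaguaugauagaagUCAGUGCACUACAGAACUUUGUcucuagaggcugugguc
The 3p arm was the abundant one: its counts were 173 to 377 times those of the 5p arm in eWAT libraries (median 282) and 292 to 578 times in liver libraries (median 377).

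The eWAT libraries held 7481038 to 13022536 counts and the liver libraries 7017730 to 14394584. The tissue labels were checked on defining miRNAs, given as CPM, counts per 1000000 of a library scaled by the trimmed mean of M values within its tissue. The hepatocyte miRNA miR-122-5p stood at 73.6 to 8092 CPM in eWAT and at 314486 to 637995 CPM in liver. The smooth muscle and adipose miRNA miR-143-3p stood at 35230.3 to 307273 CPM in eWAT and at 7781 to 14169.8 CPM in liver. The libraries eWAT HFLF 4, LF 4 and LF 5 held the highest sums of epithelial miRNAs (miR-200 family, miR-141 and miR-205), at 2019 to 8534 CPM, against 74.1 to 1337 CPM in the other 15 eWAT libraries. The highest of these 15 was LF 3 at 1337 CPM, followed by LF 2 at 484 CPM, so the sums grade into each other. The number of members called in eWAT is therefore also given without these 3 libraries and, as chosen after seeing the data, without LF 3 as well. In bulk tissue, fewer cells of a type and less RNA per cell cannot be told apart.

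The members had been grouped as liver-abundant, and how many of them were so depended on the scale. As a share of all miRNA counts, miR-101b-3p had a median of 0.160% in eWAT (0.119% to 0.218%, n = 18 libraries), against 1.08% in liver (0.786% to 1.56%, n = 18 libraries). The median share of miR-148a-3p was 0.267% in eWAT (0.185% to 0.359%), against 0.850% in liver (0.531% to 1.10%). These were the members with a lower share in every eWAT library than in any liver library. The order was the opposite for miR-152-3p, with 0.104% in eWAT (0.0864% to 0.124%) and 0.0298% in liver (0.0188% to 0.0458%), again without overlap. By share of counts the remaining 3 members overlapped between the tissues. The median share of miR-101a-3p was 0.421% in eWAT and 0.454% in liver, that of miR-148b-3p 0.0415% in eWAT and 0.0304% in liver, and that of the 5p strand miR-148a-5p 0.00102% in eWAT and 0.00217% in liver. These tissue levels are a description without a test, and they depend on the scale, since miR-122-5p alone takes a large part of the liver counts. How many of all miRNAs lay without overlap between the tissues was not determined on any scale. The numbers of members that did so therefore do not set them apart from other miRNAs. With 1 set of scaling factors for both tissues, 5 of the 6 members were lower in every eWAT library than in any liver library. The exception was miR-152-3p, whose tissues then overlapped, at 422 to 766 CPM in eWAT and 339 to 540 CPM in liver. On that scale miR-101a-3p stood at 1437 to 3821 CPM in eWAT and 5323 to 8696 CPM in liver, miR-148b-3p at 196 to 315 CPM in eWAT and 373 to 644 CPM in liver, and miR-148a-5p at 3.77 to 11.4 CPM in eWAT and 17.7 to 43.3 CPM in liver. The eWAT to liver ratio of medians was 0.55 for miR-148b-3p, against 1.36 by share of counts, which turns its order round. For the other members it was 1.47 on that scale and 3.48 by share (miR-152-3p), 0.420 and 0.927 (miR-101a-3p), 0.198 and 0.469 (miR-148a-5p), 0.133 and 0.314 (miR-148a-3p), and 0.0631 and 0.149 (miR-101b-3p).

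Within eWAT the order of shares was miR-101a-3p, miR-148a-3p, miR-101b-3p, miR-152-3p, miR-148b-3p and miR-148a-5p. The ranges of the first 4 overlapped with those of their neighbours, while miR-148b-3p (0.0294% to 0.0501%) lay below every miR-152-3p value and miR-148a-5p lay below all others. Within liver the order was miR-101b-3p, miR-148a-3p, miR-101a-3p, miR-148b-3p, miR-152-3p and miR-148a-5p. There the first 3 overlapped with their neighbours, miR-148b-3p and miR-152-3p overlapped with each other, and a gap separated these pairs from the rest. These are orders of counts and not of molecules.

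Each family was led by a different member in the 2 tissues or by the same member to a different degree. Ratios within a library do not depend on how libraries are scaled. The ratio of miR-101a-3p to miR-101b-3p counts was 1.60 to 3.48 in the 18 eWAT libraries (median 2.65) and 0.307 to 0.493 in the 18 liver libraries (median 0.415). Thus miR-101a-3p held the larger part of the miR-101 counts in every eWAT library, and miR-101b-3p in every liver library. Of the counts with the CAGUGCA seed, miR-148a-3p held 58.0% to 71.9% in eWAT and 88.1% to 94.4% in liver. The part of miR-152-3p was 20.6% to 29.9% in eWAT and 2.71% to 5.88% in liver.

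**Figure D1:**
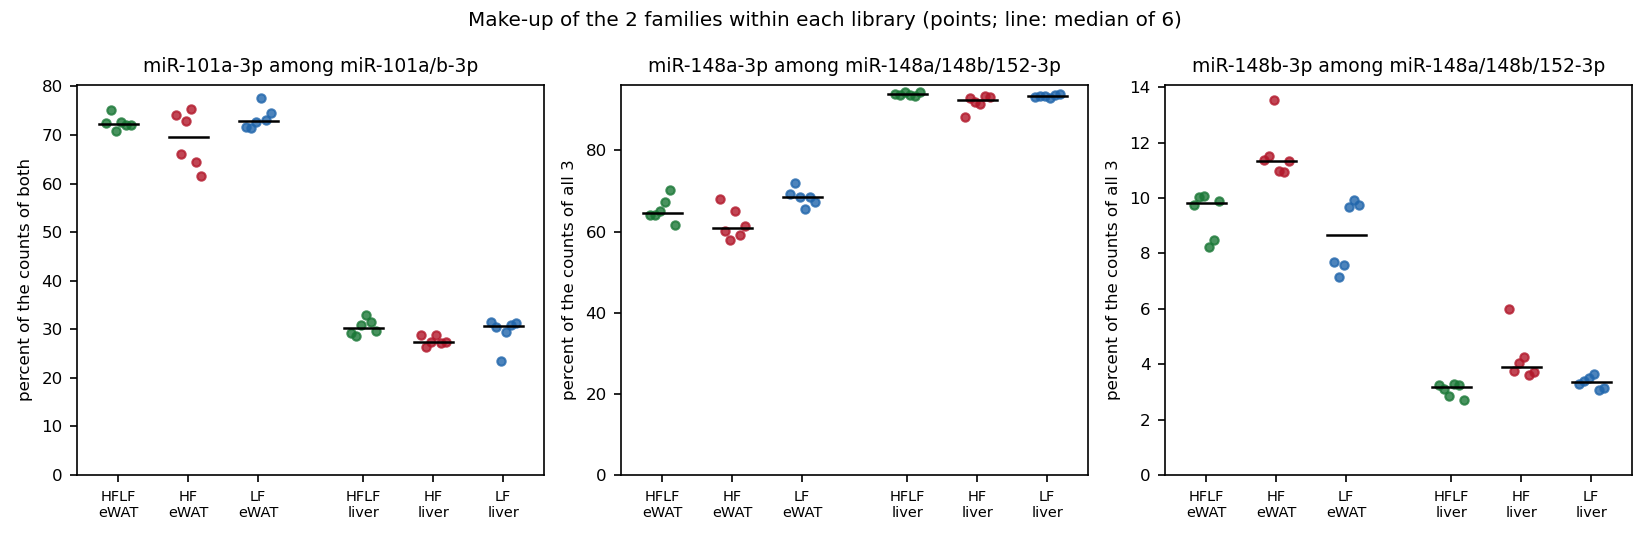
Share of a family's counts held by miR-101a-3p, by miR-148a-3p and by miR-148b-3p in each library (points, vertical axes in percent; black line, median of 6), by diet and tissue. The eWAT and liver libraries do not overlap in any panel, with miR-101a-3p at 61.5% to 77.7% in eWAT and 23.5% to 33.0% in liver.

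The comparison of HF with LF in eWAT asks what the lasting high-fat diet changed in the fat pad. In HF fat, 4 of the 6 members were lower than in LF fat: miR-101a-3p, miR-148a-3p, miR-101b-3p and miR-152-3p. None was higher. Over all 571 miRNAs tested in eWAT, 15.2% were lower, 19.6% were higher and 34.9% changed in either direction (edgeR quasi-likelihood test, Benjamini-Hochberg adjusted p below 0.05). The members had a median log2 fold change of -0.44, against 0.03 for all miRNAs tested.

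The largest difference among the members was that of miR-101a-3p. Its lowest, median and highest values were 2269, 2855 and 3793 CPM in HF libraries, against 4106, 5320.2 and 5629 CPM in LF libraries. Every HF library lay below every LF library, as was the case for 13.5% of all miRNAs in either direction. It averaged 2949.7 ± 544 CPM in HF and 5088 ± 627 CPM in LF (SD, n = 6 each), which is 1.72-fold less in HF (edgeR log2 fold change -0.79, SE 0.13, adjusted p = 0.000405).

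The cholesterol-related miR-148a-3p ranged from 1492 through a median of 2265 to 2635 CPM in HF libraries, against 2756, 3188 and 3676 CPM in LF libraries. Here too the groups did not overlap. It was 1.51-fold lower in HF (edgeR log2 fold change -0.60, SE 0.14, adjusted p = 0.00285). Its partner from the same hairpin, miR-148a-5p, had 5.98, 8.73 and 12.7 CPM in HF libraries, against 8.93, 11.5 and 18.1 CPM in LF libraries. Those groups overlapped and the difference did not pass the test (log2 fold change -0.39, SE 0.22, adjusted p = 0.182 by edgeR).

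The second miR-101 member, miR-101b-3p, had 984, 1301 and 1687 CPM in HF libraries, against 1560, 1826 and 2085 CPM in LF libraries. All 6 HF libraries lay below the LF mean, but the groups overlapped (log2 fold change -0.49, SE 0.14, adjusted p = 0.0101 by edgeR). For miR-152-3p the values were 732, 847 and 1141 CPM in HF libraries, against 1011, 1056 and 1129.9 CPM in LF libraries. The HF libraries spread more widely and 5 of 6 lay below the LF mean. Its call stood at the threshold (log2 fold change -0.25, SE 0.096, adjusted p = 0.049986 by edgeR). It was lost when any of the libraries HF 1, 2, 3, 4 or 6 or LF 2, 4 or 5 was left out, with adjusted p from 0.0507 to 0.202, and without the 3 epithelium-rich libraries (adjusted p = 0.125), which leaves 3 of the 6 members called. It was also lost without the filter on low counts and in a fit of the 2 diets alone (adjusted p = 0.152 and 0.0984 by edgeR). The other 3 calls held in each of these fits. With LF 3 left out beside the 3 epithelium-rich libraries, miR-101b-3p was lost too (log2 fold change -0.44, adjusted p = 0.0961 by edgeR), which leaves miR-101a-3p and miR-148a-3p, 2 of the 6 members. Over all miRNAs the calls were 112 higher and 87 lower with all libraries, 111 and 60 without the 3, and 83 and 52 without the 4.

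The third miRNA with the CAGUGCA seed, miR-148b-3p, had 319, 414 and 441 CPM in HF libraries, against 330.2, 386 and 508 CPM in LF libraries. The groups lay over each other, and the log2 fold change was -0.04 (SE 0.12, adjusted p = 0.781 by edgeR). Within the 3 miRNAs of that seed its part was higher in every HF eWAT library, at 10.9% to 13.6%, than in any LF library, at 7.16% to 9.93%. The HFLF libraries stood at 8.23% to 10.1%, also below every HF library. Such a part also rises when the more abundant miR-148a-3p falls, so it shows no separate change of miR-148b-3p. These parts were looked at after the levels were seen and are given without a test.

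**Figure D2:**
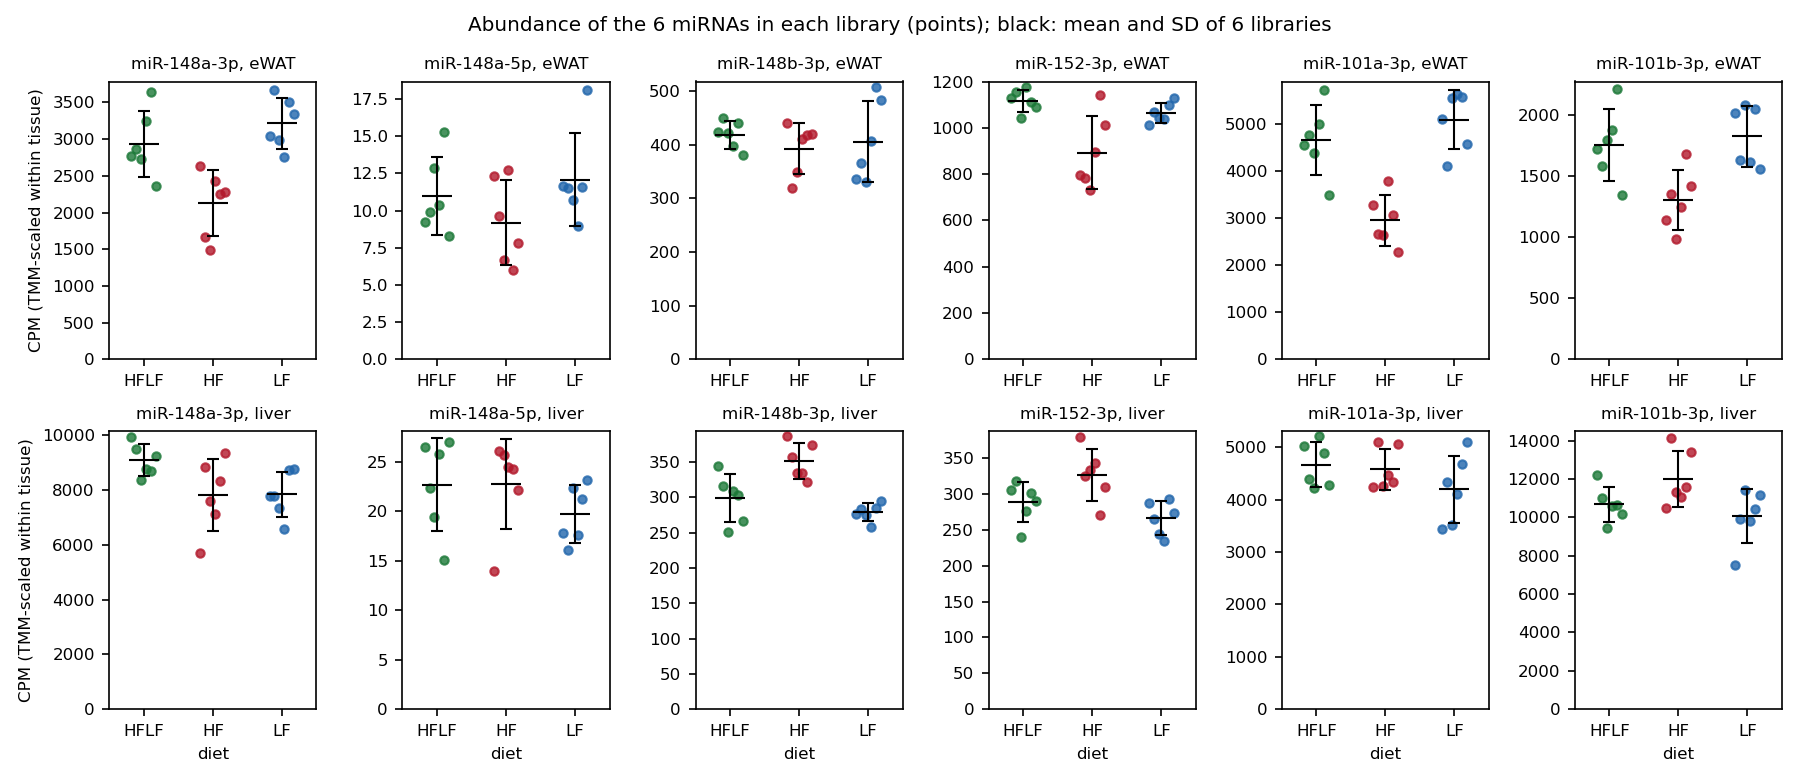
Abundance of the 6 miRNAs in each library (points; vertical axes in CPM scaled within a tissue, starting at 0), in eWAT above and liver below, by diet; black marks are the mean and SD of 6 libraries. In eWAT the HF values of miR-101a-3p and miR-148a-3p lie below all LF values, and in liver the HF values of miR-148b-3p lie above all LF values.

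How far the fat pad values fell depended on the scaling. With total counts in place of the scaling factors, the median over all 571 miRNAs moved to 0.32 on the log2 scale, and the balance of calls to 205 higher and 53 lower, against 112 higher and 87 lower. On that scale miR-101a-3p alone among the members was called (log2 fold change -0.49, adjusted p = 0.00821 by edgeR). The log2 fold changes were then -0.31 for miR-148a-3p and -0.20 for miR-101b-3p (adjusted p = 0.0524 and 0.251 by edgeR), and they turned positive for miR-152-3p (0.04) and miR-148b-3p (0.25). Under total counts all 6 members still lay below the median of all miRNAs.

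**Figure D3:**
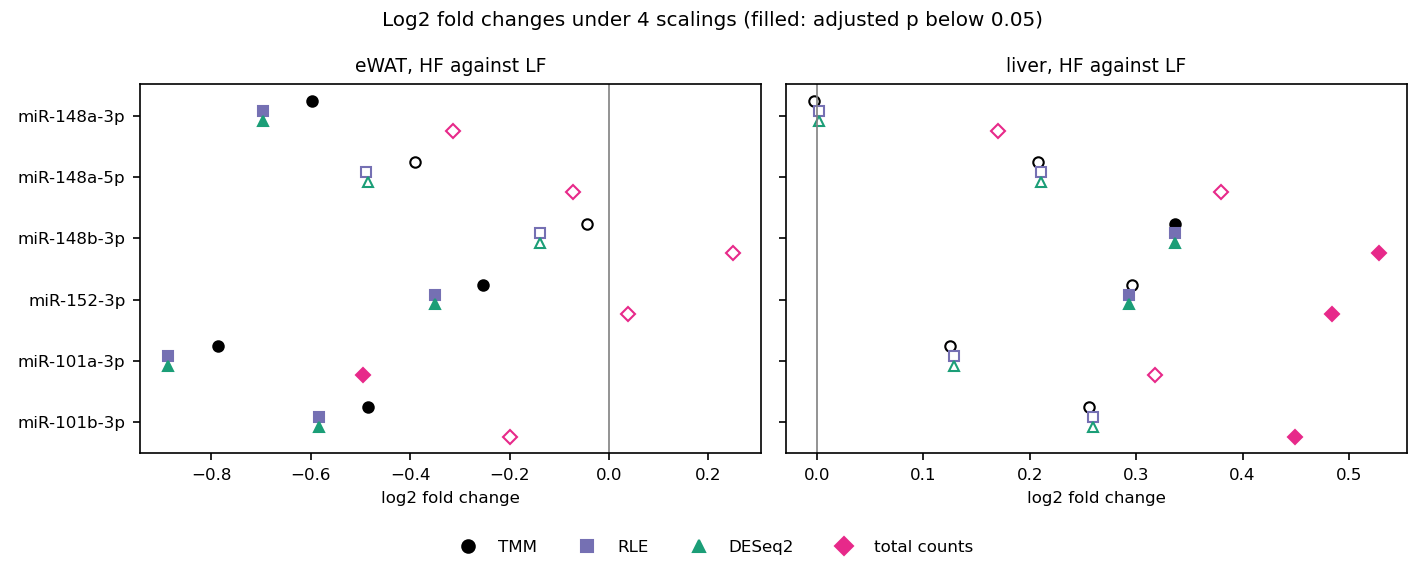
Log2 fold changes of HF against LF (horizontal axes) for the 6 miRNAs in eWAT and liver under 4 scalings (symbols; filled where adjusted p is below 0.05). In eWAT total counts shift every member upward, to -0.49 for miR-101a-3p and 0.25 for miR-148b-3p, and in liver to 0.53 for miR-148b-3p.

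Markers of other cells moved in the same comparison, and their part in the results above was not tested. Of 5 adipocyte and mesenchymal miRNAs, 4 were lower in HF eWAT. All 5 together summed to 38277 to 103250 CPM in HF libraries, against 117672 to 314286 CPM in LF libraries. Most of that sum was miR-143-3p, at 35230.3 to 307273 CPM over the eWAT libraries. The next most abundant, miR-378a-3p, reached 5864 CPM. Of 7 leukocyte miRNAs 5 were higher, with sums of 2061 to 4391 CPM in HF libraries and 1505 to 2327 CPM in LF libraries. All 5 tested epithelial miRNAs, of 6 listed, were lower, with sums of 78.5 to 147 CPM in HF libraries and 102 to 8534 CPM in LF libraries. None of the adipocyte and mesenchymal or leukocyte markers was at 0 in any eWAT library, and the epithelial miR-141-3p was at 0 in 3. Of 4 erythroid miRNAs 2 were lower, with sums of 966 to 3064 CPM in HF libraries and 2151 to 3853 CPM in LF libraries, as were 2 of 4 tested hepatocyte miRNAs, with sums of 291 to 2669 CPM in HF libraries and 580 to 10419 CPM in LF libraries. Of 5 male germ cell miRNAs 2 were lower, with sums of 15.1 to 355 CPM in HF libraries and 20.7 to 1951 CPM in LF libraries. Of 3 fibroblast and stellate miRNAs 1 was higher, with sums of 9760 to 18737 CPM in HF libraries and 7749 to 16187 CPM in LF libraries, and neither of 2 endothelial miRNAs was called.

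The question behind the comparison of HFLF and HF is what the return to low-fat food changed; it shares the HF libraries with the comparison above. In eWAT the 4 members miR-101a-3p, miR-148a-3p, miR-152-3p and miR-101b-3p were higher in HFLF than in HF and none was lower. Over all 571 miRNAs 9.63% were higher, 16.3% were lower and 25.9% changed in either direction, with 55 higher and 93 lower (25 and 138 with total counts). The members had a median log2 fold change of 0.38, against -0.09 for all miRNAs.

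In HFLF libraries miR-101a-3p had 3488, 4654 and 5724 CPM (lowest, median and highest), 0.66 higher than HF on the log2 scale (SE 0.13, adjusted p = 0.00251 by edgeR). For miR-148a-3p the HFLF values were 2363, 2821 and 3646 CPM and the log2 fold change was 0.47 (SE 0.14, adjusted p = 0.0192 by edgeR). For miR-152-3p they were 1045, 1120.05 and 1178 CPM, and the difference from HF was 0.32 on the log2 scale (SE 0.096, adjusted p = 0.0213 by edgeR). For each of these, all 6 HFLF libraries lay above the HF mean while the groups overlapped, where 9.81% of all miRNAs had groups without overlap. The same held for miR-101b-3p, at 1346, 1761 and 2217 CPM in HFLF (log2 fold change 0.43, SE 0.14, adjusted p = 0.0287 by edgeR). The remaining members had log2 fold changes of 0.26 (miR-148a-5p, adjusted p = 0.433 by edgeR) and 0.09 (miR-148b-3p, adjusted p = 0.607 by edgeR).

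Of these 4 calls, that of miR-101a-3p held under every alternative and with any library left out, with adjusted p up to 0.0193. The number called dropped to 1 with total counts and without the filter on low counts, to 1 without the 3 epithelium-rich libraries, with adjusted p from 0.0685 to 0.0737 for the other 3, to 2 with LF 3 left out as well (miR-101a-3p and miR-148a-3p), and to 1 when HFLF 4, HFLF 5, HF 2 or HF 3 alone was left out. It dropped to 2 without HFLF 1 or HF 1. The miR-152-3p call was also lost without HFLF 2, and the miR-101b-3p call without HFLF 3 or HF 4 (adjusted p from 0.0630 to 0.0652 by edgeR). Log2 fold changes with 1 library left out ran from 0.36 to 0.51 for miR-148a-3p, from 0.25 to 0.38 for miR-152-3p and from 0.32 to 0.49 for miR-101b-3p. In the same comparison 3 of 5 adipocyte and mesenchymal miRNAs were higher and 2 of 7 leukocyte miRNAs lower, with HFLF sums of 83194 to 169868 CPM and 1932 to 3276 CPM. Of 4 erythroid miRNAs 2 were higher, with a list median of 0.95 on the log2 scale and sums of 2888 to 4568 CPM in HFLF libraries, and 1 of 3 fibroblast and stellate miRNAs was lower, with sums of 9282 to 13527 CPM in HFLF libraries. No epithelial, hepatocyte, male germ cell or endothelial marker was called. The part of these markers in the result was not tested. Over all miRNAs the calls without the 3 epithelium-rich libraries were 35 higher and 83 lower.

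Between HFLF and LF in eWAT no member was called, with log2 fold changes from -0.14 for miR-148a-5p to 0.07 for miR-152-3p and SEs from 0.096 to 0.22. No miRNA of the 571 was called (0%) by edgeR in this comparison, where 65 had an unadjusted p below 0.05, none of them a member, and DESeq2 called 9; edgeR called 7 without the 3 epithelium-rich libraries, none of them a member. All member groups overlapped, where 1.05% of all miRNAs had groups without overlap. The comparison shares the LF libraries with that of HF and LF.

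**Figure D4:**
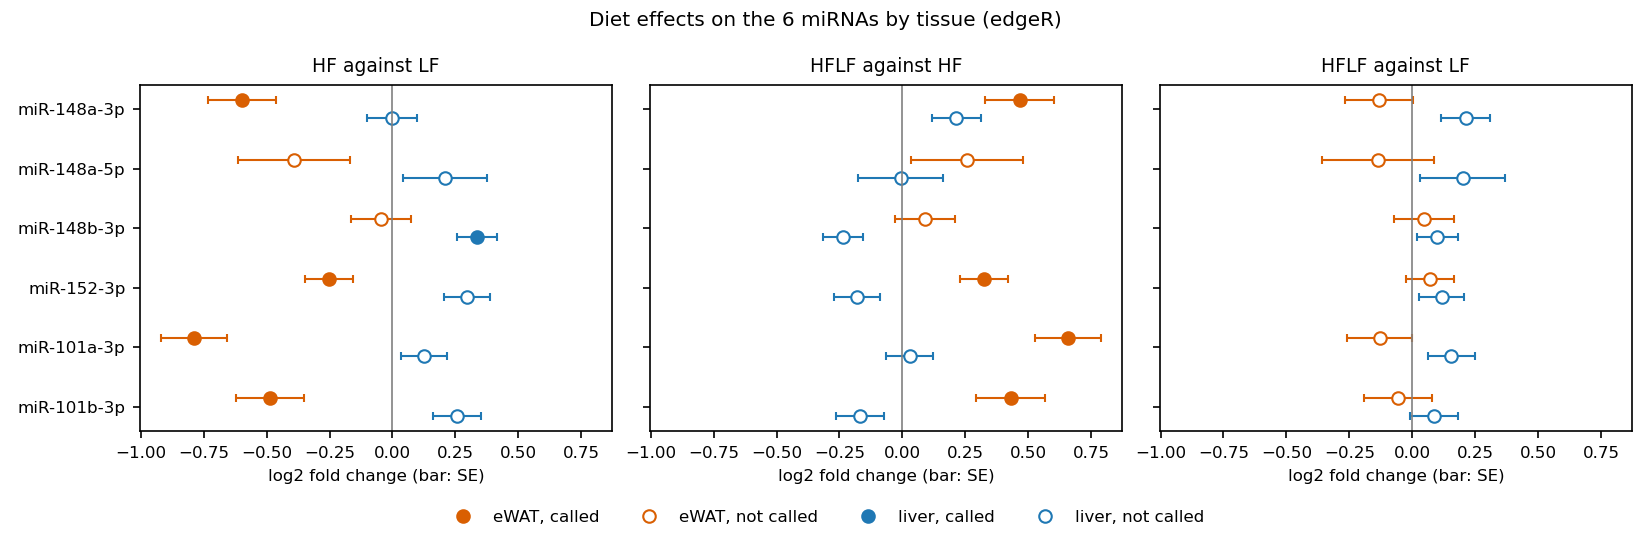
Log2 fold changes (horizontal axes; bars, SE) of the 6 miRNAs in the 3 diet comparisons, in eWAT (orange, upper of each pair) and liver (blue); filled symbols passed adjusted p below 0.05 by edgeR. In eWAT the filled symbols lie left of 0 for HF against LF (-0.79 to -0.25) and right of 0 for HFLF against HF (0.32 to 0.66), and the single filled liver symbol is miR-148b-3p at 0.34.

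In liver the HF diet was accompanied by a higher level of 1 of the 6 members, miR-148b-3p, and by no lower one. Over the 422 miRNAs tested in liver 2.61% were higher, 3.08% were lower and 5.69% changed in either direction. For miR-148b-3p the values were 322, 346 and 387 CPM in HF libraries, against 258, 279.8 and 295 CPM in LF libraries. The groups did not overlap, as was the case for 3.08% of all miRNAs. It averaged 352 ± 25.5 CPM in HF and 279 ± 12.8 CPM in LF (SD, n = 6 each), a 1.26-fold difference (log2 fold change 0.34, SE 0.080, adjusted p = 0.0155 by edgeR). The call held under every alternative, with adjusted p up to 0.0433.

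The others of the CAGUGCA seed differed in how they stood. For miR-152-3p the values were 271, 329.5 and 380.1 CPM in HF livers, against 234, 269 and 294 CPM in LF livers, and all 6 HF livers lay above the LF mean. Its log2 fold change of 0.30 (SE 0.090) fell just short of the threshold (adjusted p = 0.0501 by edgeR). For miR-148a-3p, the most abundant of the 3, the values were 5698, 7962 and 9368 CPM in HF livers, against 6594, 7794 and 8788 CPM in LF livers. These groups overlapped throughout, and the log2 fold change was -0.00 (SE 0.098, adjusted p = 0.989 by edgeR). The library HF 1 was the lowest of the HF livers for miR-148a-3p and the highest for miR-148b-3p and miR-152-3p. In it miR-148a-3p had 14.99 times the counts of miR-152-3p, the lowest such ratio of the 18 livers, where the median was 29.8. The ratios of HF 3 (22.7) and HF 4 (20.8) were also below every LF liver (from 27.1) and HFLF liver (from 28.8). Those of HF 2, HF 5 and HF 6 were 27.2, 30.8 and 30.2.

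Of the miR-101 members, miR-101b-3p had 10488, 11453 and 14154 CPM in HF livers, against 7498, 10176 and 11449.8 CPM in LF livers (log2 fold change 0.26, SE 0.095, adjusted p = 0.102 by edgeR). For miR-101a-3p the values were 4232, 4404 and 5092 CPM in HF livers, against 3437, 4223 and 5094 CPM in LF livers (log2 fold change 0.13, SE 0.093, adjusted p = 0.473 by edgeR). Both pairs of groups overlapped. For the 5p strand miR-148a-5p it was 0.21 on the log2 scale (SE 0.17, edgeR adjusted p = 0.542). The number of members called in liver depended on the scaling: it was 2 with RLE factors and with DESeq2, which added miR-152-3p, and 3 with total counts, which added miR-101b-3p as well. Over all miRNAs the median of the log2 fold changes stood at -0.01 here and at 0.18 with total counts. The calls over all miRNAs were 11 higher and 13 lower here, 15 and 13 with RLE factors, and 24 and 23 with DESeq2. They were 51 and 10 with total counts, and 28 and 12 with total counts that left out miR-122-5p. In either direction 5.69% were called here, 6.64% with RLE factors, 11.1% with DESeq2 and 14.5% with total counts. With 1 library left out, miR-152-3p was called without HF 5, HF 6, LF 1 or LF 5 (adjusted p from 0.0132 to 0.0468 by edgeR), and miR-101b-3p without LF 3 (adjusted p = 0.0441 by edgeR).

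Neither of the other liver comparisons called a member or any other miRNA (0% of 422 in each by edgeR). For HFLF against LF, 51 miRNAs had an unadjusted p below 0.05, among them 1 member, and DESeq2 called 4. For HFLF against HF, 65 had an unadjusted p below 0.05, among them 2 members, and DESeq2 called 15. In HFLF livers miR-148a-3p had 8356, 9007 and 9937 CPM, with log2 fold changes of 0.21 against LF (SE 0.098, adjusted p = 0.391 by edgeR) and 0.21 against HF (SE 0.098, adjusted p = 0.282 by edgeR). For miR-148b-3p the HFLF livers had 251, 307 and 344 CPM, and the log2 fold change against HF was -0.24 (SE 0.080, adjusted p = 0.141 by edgeR). All 6 HFLF livers lay above the HF mean for miR-148a-3p and below it for miR-148b-3p, and the groups overlapped for each. Groups without overlap made up 0.237% of all miRNAs for HFLF against LF and 1.18% for HFLF against HF.

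The diet effects of the 2 tissues were then set against each other by an interaction term in 1 fit of all 36 libraries, with the liver effect subtracted from the eWAT effect. For HF against LF the difference was negative and passed the test for 5 of the 6 members, where 15% of the 595 miRNAs tested differed in that direction and 26.7% in either. It was -0.99 (SE 0.19, adjusted p = 0.000582 by edgeR) for miR-101a-3p and -0.82 (SE 0.19, adjusted p = 0.00203 by edgeR) for miR-101b-3p. For miR-152-3p it was -0.60 (SE 0.14, adjusted p = 0.00186 by edgeR). It was -0.68 (SE 0.21, adjusted p = 0.0190 by edgeR) for miR-148a-3p and -0.44 (SE 0.15, adjusted p = 0.0299 by edgeR) for miR-148b-3p. The difference for miR-148a-5p, -0.68, had a larger SE of 0.31 and did not pass (adjusted p = 0.103 by edgeR). The log2 fold changes of the 2 tissues had opposite signs for all members but miR-148a-3p. The calls of miR-101a-3p, miR-101b-3p and miR-152-3p held with any library left out and under RLE factors, total counts, no filter on low counts, the replicate block, the fits without the 3 or 4 libraries, and, added after seeing the data, DESeq2, a fit of the 2 diets alone and scaling factors set within each tissue. With the factors set within each tissue the 5 differences ran from -0.92 to -0.38. That of miR-148b-3p was lost with total counts (-0.28, adjusted p = 0.215 by edgeR), without the filter on low counts (adjusted p = 0.107 by edgeR), without the 3 epithelium-rich libraries (adjusted p = 0.127 by edgeR) or these and LF 3 (adjusted p = 0.111 by edgeR), and without eWAT HF 2, HF 3, LF 5 or LF 6 or liver HF 2, HF 5, HF 6 or LF 4 (adjusted p up to 0.0759 by edgeR). With the replicate block those of miR-148a-3p and miR-148b-3p were lost (adjusted p = 0.0584 and 0.0696 by edgeR). That of miR-148a-5p was gained without liver HF 1 (adjusted p = 0.0324 by edgeR). Over all miRNAs 70 differed upward and 89 downward, against 88 and 60 with total counts.

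For HFLF against HF the difference was positive and passed for 3 members, where 6.22% of all miRNAs differed in that direction, 3.36% in the other and 9.58% in either. These were miR-101a-3p (0.68, SE 0.19, adjusted p = 0.0204 by edgeR), miR-101b-3p (0.66, SE 0.19, adjusted p = 0.0254 by edgeR) and miR-152-3p (0.54, SE 0.14, adjusted p = 0.0117 by edgeR). None of the 3 was called with total counts, with adjusted p from 0.0772 to 0.107, nor without the filter on low counts, with adjusted p from 0.0880 to 0.0986. Without eWAT HF 3 or HFLF 5 only miR-152-3p of these was called. With the replicate block the miR-101a-3p difference was lost (adjusted p = 0.0711 by edgeR). The miR-101b-3p difference was also lost without liver HFLF 3, HF 2, HF 5 or HF 6 and without the 3 epithelium-rich libraries (adjusted p from 0.0501 to 0.0675 by edgeR). Over all miRNAs 37 differed upward and 20 downward, against 11 and 28 with total counts, 35 and 31 with RLE factors, 39 and 38 with DESeq2, 27 and 34 with factors set within each tissue, and 11 and 14 without the filter. For HFLF against LF no member and none of the 595 miRNAs differed between the tissues (0% by edgeR, 69 at an unadjusted p below 0.05, none of them a member; DESeq2 called 9).

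The other strands and copies of the families were far less abundant. Of 5 such names, 3 were tested in each tissue, while miR-101a-5p (0 to 14 counts per eWAT library and 0 to 12 per liver library) and miR-101b-5p (0 to 2 and 0 to 9) did not pass the filter. The related name miR-101c averaged 35.9 ± 11.1 CPM in HF eWAT and 59.5 ± 8.47 CPM in LF eWAT (SD, n = 6 each) (edgeR log2 fold change -0.73, SE 0.19, adjusted p = 0.00768), and for HFLF against HF it differed by 0.64 on the log2 scale (SE 0.19, edgeR adjusted p = 0.0235). Its RefSeq sequence is shown so that the overlap with miR-101a-3p can be seen.
miR-101c: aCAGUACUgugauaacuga
All 19 of its bases lie within miR-101a-3p with 0 differences, so a read of these bases alone fits both names. How such reads were counted is not given, so the miR-101c values are not taken as separate evidence. The 5p strands miR-148b-5p and miR-152-5p passed the test in no diet comparison of either tissue, with medians of at most 2.71 CPM and 7.49 CPM in any group. Between the tissues, eWAT minus liver, the HF against LF effect differed for miR-148b-5p, at 2 to 40 counts per eWAT library and 3 to 59 per liver library, by -1.83 (SE 0.59, adjusted p = 0.0210 by edgeR) and for miR-101c by -1.03 (SE 0.27, adjusted p = 0.00435 by edgeR).

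The members were set beside 13 miRNAs known to act on cholesterol and lipoprotein genes, of which 11 were tested in eWAT and 12 in liver. In HF eWAT 4 were higher and 3 lower than in LF eWAT, and the list's median log2 fold change was 0.20, against 0.03 over all miRNAs. The myeloid miR-223-3p averaged 657 ± 125 CPM in HF and 372 ± 45.9 CPM in LF (log2 fold change 0.82, adjusted p = 0.000312 by edgeR). Its direction was the reverse of that of miR-148a-3p, as was that of miR-185-5p, which targets the HDL receptor (0.41, adjusted p = 0.00479 by edgeR). Lower in HF were miR-30c-5p, which represses the lipoprotein assembly factor Mttp (-0.74, adjusted p = 0.00768 by edgeR), and miR-33-5p, encoded in an intron of Srebf2, at 0.445 ± 0.463 CPM in HF and 2.16 ± 1.49 CPM in LF (adjusted p = 0.0101 by edgeR). The miR-33-5p values lay near the floor, down to 0.0797 CPM in eWAT, so its call rests on few counts. For HFLF against HF in eWAT 1 was higher, miR-30c-5p (0.76, adjusted p = 0.0100 by edgeR), and 2 were lower, miR-223-3p (-0.53, adjusted p = 0.00668 by edgeR) and miR-128-3p (-0.45, adjusted p = 0.0101 by edgeR). In liver 1 of the 12 differed between HF and LF, miR-122-5p, which averaged 396410 ± 50756 CPM in HF and 510749 ± 80064 CPM in LF (log2 fold change -0.37, adjusted p = 0.0350 by edgeR).

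Across the 18 eWAT libraries, where diet is shared by the points, the miRNAs most like the members in log2 CPM were taken as the 3 with the highest Pearson correlation among 562 others, as a description. For miR-101a-3p they were miR-99a-5p (r = 0.92), miR-10a-5p (0.88) and miR-125b-2-3p (0.84), and for miR-148a-3p they were miR-30e-3p (0.89), miR-125b-2-3p (0.88) and miR-218-5p (0.86). For miR-152-3p they were miR-10b-3p (0.89), miR-30a-5p (0.87) and miR-30a-3p (0.85), and for miR-101b-3p they were miR-193a-3p (0.86), miR-103-3p (0.85) and miR-378c (0.84). Between members, r was 0.80 for miR-148a-3p with miR-101a-3p, 0.76 for miR-101a-3p with miR-101b-3p and 0.46 for miR-148a-3p with miR-148b-3p in eWAT. In liver miR-148b-3p and miR-152-3p were the closest pair of members (r = 0.82), while r was -0.02 for miR-148a-3p with miR-148b-3p and -0.10 for miR-148a-3p with miR-152-3p. The nearest other miRNAs among 413 in liver were miR-1839-5p for miR-148b-3p (0.79), miR-149-5p for miR-152-3p (0.85), miR-19b-3p for miR-148a-3p (0.78), miR-30e-5p for miR-101a-3p (0.85) and miR-192-5p for miR-101b-3p (0.75). The low-count miR-148a-5p was nearest to miR-3084-3p in eWAT (0.81) and to miR-192-5p in liver (0.60).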

How the data were processed

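Small RNA libraries were made by the authors from total RNA using Kit v3 of the NEXTFLEX Small RNA-seq line, per the labels' protocols. The submitters' processing notes name cutadapt, Bowtie and the build GRCm38.p6; versions, the miRNA reference, the counting program and any use of the kit's random bases are not given in the sources used here. For liver and eWAT the deposited values are raw counts of each mature miRNA, with 0 rows that name no miRNA. The deposited sperm values, read as log2, list no member and were not tested. Besides the 18 F0 sperm columns, 36 value columns were not used: the 18 liver columns stand a second time, with identical values, in the eWAT file, and 18 sperm columns are of the F1 generation.

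Counts were tested with edgeR 4.0.16 in R 4.3.3 (filterByExpr by diet, TMM scaling, quasi-likelihood test, 3 diets in 1 fit per tissue), 2-sided, with Benjamini-Hochberg adjustment over all miRNAs tested. SE is the log2 fold change divided by the square root of F. Log2 CPM used a prior count of 2. A library shows a direction where it lies beyond the mean of the other group. No 2 libraries of a group were identical or within sampling noise (lowest chi-square per degree of freedom 35.3). Sample titles number the replicates of a diet, and nothing else states that they are different animals; the p-values then reflect only how these samples spread, which may be technical.

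The members and lists were chosen with earlier results of these data known. The named miRNAs are the members, 5 related names, up to 4 of smallest p from the cholesterol list, marker lists, and the 3 most like each member. Alternatives were DESeq2 1.42.0, RLE factors, total counts (in liver also without miR-122-5p), a fit of the 2 diets alone, leaving low counts unfiltered, a block for the replicate number, each library left out, and the 3 epithelium-rich libraries left out. Added after seeing the data were fits without LF 3 as well and, for the tissue difference, DESeq2, a fit of 2 diets and TMM factors set within each tissue.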

Additional observations from a re-analysis of the deposited data

Results flagged for a closer look

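In 36 groups of 6 libraries (the 6 members by tissue and diet), 2 had a library far from the others, and chance gives about 1 in 20. Both were of the low-count strand miR-148a-5p. In eWAT of LF mice library 6 stood at 18.1 CPM, above the others at 8.93 to 11.7 CPM. In liver of HF mice library 1 stood at 13.96 CPM, below the others at 22.1 to 26.1 CPM.

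The diet effects differed between eWAT and liver, by the interaction test, in 8 results (log2 fold change in eWAT minus that in liver). For HF against LF these were -0.99 for miR-101a-3p, -0.82 for miR-101b-3p, -0.68 for miR-148a-3p, -0.60 for miR-152-3p and -0.44 for miR-148b-3p. For HFLF against HF they were 0.68 for miR-101a-3p, 0.66 for miR-101b-3p and 0.54 for miR-152-3p.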

How the results depend on the processing

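Of 6 members, those called for HF against LF in eWAT were 4 as reported, 1 with total counts and 2 without the 4 libraries richest in epithelial miRNAs. They were 3 without the filter on low counts, 3 in the fit of 2 diets and 3 without the 3 epithelium-rich libraries. With a library left out they were 3 to 4. For HFLF against HF in eWAT they were 4 as reported, 1 with total counts, 1 without the filter on low counts and 1 without the 3 epithelium-rich libraries. They were 2 without the 4 and 1 to 4 with a library left out. For HF against LF in liver they were 1 as reported, 2 with RLE factors, 3 with total counts, 3 with total counts without miR-122-5p, 2 with DESeq2 and 1 to 2 with a library left out. For the tissue difference they were 5 for HF against LF. Of these miR-148b-3p was lost with total counts, without the filter, without the 3 or 4 libraries and with some single libraries left out. The miR-148a-5p difference was gained without liver HF 1. For HFLF against HF the tissue difference was called for 3, with 0 under total counts, 0 without the filter and 1 to 3 with a library left out. The causes were not tested. Fits without the filter adjust over more miRNAs and also estimate scaling and spread from more of them, and these were not separated. Same-numbered samples were not shown to pair: of 6 pairs, 1 (HF and LF), 2 (HFLF and LF) and 2 (HFLF and HF) in eWAT had a correlation over 0.1, and 2, 2 and 2 in liver, and of 18 eWAT and liver pairs of 1 diet and number 1 did (r from -0.086 to 0.11), with 1, 2 and 0 and then 2, 2 and 2 samples closest to their own number. With the replicate block the members called in eWAT were 3 of 6 for HF against LF and 4 for HFLF against HF. Over all miRNAs the block called 29.9% and 22.8% there. In liver 1 member was called for HF against LF, where 6.40% of all miRNAs were called. For the tissue differences they were 3 (HF against LF) and 2 (HFLF against HF), where 17.3% and 5.71% of all miRNAs were called. The calls lost were miR-152-3p for HF against LF in eWAT (adjusted p = 0.0518 by edgeR) and, among the tissue differences, miR-148a-3p and miR-148b-3p for HF against LF (adjusted p = 0.0584 and 0.0696 by edgeR) and miR-101a-3p for HFLF against HF (adjusted p = 0.0711 by edgeR).

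Of the results whose sign turned, miR-152-3p for HF against LF in eWAT was called as reported. In eWAT with total counts miR-148b-3p turned to 0.25 and miR-152-3p to 0.037 for HF against LF, miR-101b-3p to 0.034 for HFLF against LF and miR-148b-3p to -0.11 for HFLF against HF. Without the 3 epithelium-rich libraries miR-148b-3p turned to 0.063 for HF against LF, and its tissue difference for HFLF against LF to 0.042. In liver miR-148a-3p for HF against LF turned to 0.0019 with RLE factors and with DESeq2, 0.17 with total counts, 0.048 with total counts without miR-122-5p, 0.0097 without the filter and 0.0098 in the fit of 2 diets. For HFLF against HF in liver miR-148a-5p turned to 0.0062 with RLE factors, 0.0050 with DESeq2 and 0.030 in the fit of 2 diets, and miR-101a-3p to -0.061 with total counts. With a library left out, log2 fold changes ran in eWAT from -0.12 to 0.050 (miR-148b-3p, HF against LF), -0.15 to 0.017 (miR-101b-3p, HFLF against LF) and -0.037 to 0.12 (miR-148b-3p, HFLF against LF). In liver they ran from -0.047 to 0.085 (miR-148a-3p, HF against LF), and for HFLF against HF from -0.11 to 0.083 (miR-148a-5p) and from -0.00076 to 0.076 (miR-101a-3p). The tissue difference of miR-152-3p for HFLF against LF ran from -0.12 to 0.0025.

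Over all miRNAs, calls for HFLF against HF in eWAT were 55 higher and 93 lower as reported, and in all 89 without the filter, 91 without HF 3 and 98 without HFLF 5. For HF against LF in liver they were 24, and 61 with total counts, 40 with total counts without miR-122-5p, 47 with DESeq2, 49 without HF 5, 37 without LF 5 and 16 without LF 4. For the tissue difference they were 159 and 103 with the block for HF against LF, and 57, 25 without the filter, 34 with the block, 33 without eWAT HF 3 and 37 without eWAT HFLF 5 for HFLF against HF. For HFLF against LF in eWAT, 0 became up to 12 (without HFLF 4). In liver 0 became 15 without the filter (HFLF against LF) and 15 with DESeq2 (HFLF against HF). The sperm alternatives were not run, since no member is listed there. Depth limits miR-148a-5p most, at 53 to 145 counts per eWAT library and 107 to 280 per liver library.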
